A study of Caenorhabditis elegans with 2 samples.

Results

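The genes puf-9, larp-1 and drr-2, which encode regulators of messenger RNA translation, and their neighbours wip-1 and set-16 were examined for binding by AHA-1, the worm ortholog of the vertebrate bHLH-PAS partner protein ARNT. The 5 genes were chosen by the pooled signal of 3 peaks that lie upstream of them and rank among the 20 strongest of the 530 thresholded peaks. Of 19973 protein-coding genes in the annotation, 22 (0.11%) had any of these 20 peaks from 1000 bp before a start to 200 bp after it. From the 22, puf-9, larp-1 and drr-2 were taken as translation regulators, and wip-1 and set-16 as neighbours that share peaks with them. The data were ChIP-seq peak lists from 2 biological replicates of whole first-stage (L1) larvae of Caenorhabditis elegans, of mixed sex and of strain OP124. This strain carries the unc-119(ed3) allele on chromosome III and the insertion wgIs124, which expresses AHA-1 fused to enhanced green fluorescent protein. Both replicates were of this 1 genotype and stage, and no other condition was used here. Expression was not measured, and whole larvae mix all tissues, so the lists show where the fusion protein was found and not in which cells.

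AHA-1 binds DNA as a dimer with another bHLH-PAS protein, for example HIF-1, the hypoxia-inducible factor, or the aryl hydrocarbon receptor ortholog AHR-1, and its dimers with these partners recognise short core words of DNA, GCGTG and ACGTG. Translation is regulated on the messenger RNA itself. PUF proteins such as PUF-9 bind its 3′ end and bring in enzymes that shorten the poly(A) tail, La-related protein 1 in mammals binds the 5′ end of messages for ribosomal proteins downstream of the kinase mTOR, and eIF4H-like proteins help the helicase eIF4A to unwind the 5′ leader. In worms puf-9 acts with the microRNA let-7 in developmental timing, larp-1 has been studied in the germline, and drr-2, a gene of the dietary restriction response, encodes a protein related to eIF4H. The neighbours have other roles: wip-1 encodes a WASP-interacting protein of the actin cytoskeleton, and set-16 a histone H3 lysine 4 methyltransferase related to MLL3 and MLL4.

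The 5 genes shared 3 peaks. One lay upstream of puf-9 on the X chromosome, one between the starts of drr-2 and set-16 on chromosome III, and one between the starts of larp-1 and wip-1 elsewhere on chromosome III. The genomic sequence of 300 bp around each summit is shown to let the core words be seen in place. It was read from the RefSeq genome sequence of the same assembly (WBcel235, ce11), on the plus strand, with the summit at position 150 and each GCGTG or ACGTG, on either strand, in capitals. The puf-9 stretch is chrX:5841150-5841449, the drr-2 and set-16 stretch is chrIII:13643576-13643875, and the larp-1 and wip-1 stretch is chrIII:5018168-5018467. None of the 3 stretches held an annotated UTR.
puf-9: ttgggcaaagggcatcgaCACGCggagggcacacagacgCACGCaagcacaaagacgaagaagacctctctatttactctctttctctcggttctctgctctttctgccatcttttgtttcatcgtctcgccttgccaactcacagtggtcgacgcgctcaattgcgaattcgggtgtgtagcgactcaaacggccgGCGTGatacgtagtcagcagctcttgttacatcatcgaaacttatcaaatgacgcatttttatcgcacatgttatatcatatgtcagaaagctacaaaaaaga
drr-2 and set-16: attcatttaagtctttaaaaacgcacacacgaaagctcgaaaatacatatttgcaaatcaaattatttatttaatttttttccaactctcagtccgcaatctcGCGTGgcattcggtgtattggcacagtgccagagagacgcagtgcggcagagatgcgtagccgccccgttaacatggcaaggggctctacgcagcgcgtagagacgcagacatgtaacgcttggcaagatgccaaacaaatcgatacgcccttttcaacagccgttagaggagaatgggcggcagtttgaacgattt
larp-1 and wip-1: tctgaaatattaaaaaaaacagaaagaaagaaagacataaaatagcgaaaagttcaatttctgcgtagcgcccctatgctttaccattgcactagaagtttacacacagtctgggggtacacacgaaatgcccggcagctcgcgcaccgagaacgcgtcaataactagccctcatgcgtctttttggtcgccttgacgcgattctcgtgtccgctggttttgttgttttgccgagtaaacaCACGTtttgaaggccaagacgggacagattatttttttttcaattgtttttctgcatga

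At puf-9 (WBGene00004245, chromosome X from 5841592 to 5845987, plus strand, 1 annotated transcript) the peak spanned 5841258 to 5841345, with its summit 293 bp upstream of the start. The pooled signal value, which the authors' peak caller gave relative to a control on a scale that is not stated, was 73.3 at rank 13 of the list. It was 52.2 at rank 10 in replicate 1 and 22.4 at rank 21 in replicate 2, so the peak stood near the top of both lists. The deposited pooled peak was 88 bp wide, and 3 of the 530 thresholded peaks, this one included, were as narrow or narrower, while 519 had the full width of 316 bp. Every thresholded peak below the full width was of rank 13 or stronger, and those of rank 8, 9 and 12 were 79, 90 and 85 bp wide. In the replicate lists, the puf-9 region had full widths of 324 and 296 bp, and its summits lay 2 and 18 bp to the right of the pooled one. The summit fell inside 2 short non-coding RNA genes on opposite strands, W06B11.7, whose start was 51 bp away, and W06B11.9, whose start was 114 bp away. The nearest protein-coding start on the other side was that of dct-11, 1521 bp from the summit on the minus strand.

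The peak between drr-2 (WBGene00011730, chromosome III from 13642420 to 13643570, minus strand) and set-16 (WBGene00011729, chromosome III from 13643916 to 13656637, plus strand) spanned 13643567 to 13643882. These genes are transcribed away from each other across a gap of 345 bp. The summit lay 44.8% of the way across it, 155 bp upstream of the drr-2 start and 191 bp upstream of the set-16 start, and the peak reached 4 bp into drr-2. Its pooled signal was 64.6 at rank 19, with 42.5 at rank 20 in replicate 1 and 22.1 at rank 22 in replicate 2. The replicate 2 summit fell on the same base as the pooled one and that of replicate 1 was 25 bp nearer to set-16. In replicate 1 the summit was therefore nearer to set-16, at 166 bp, than to drr-2, at 180 bp, and the reverse held in the other lists, so the peak cannot be given to one gene of the pair by distance.

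The peak between larp-1 (WBGene00020097, chromosome III from 5008925 to 5017650, minus strand) and wip-1 (WBGene00020094, chromosome III from 5018639 to 5021120, plus strand) spanned 5018159 to 5018474. This divergent gap measured 988 bp, and the summit was nearer to wip-1, at 322 bp from its start, than to larp-1, at 667 bp from its outermost start. A second larp-1 transcript starts further inside the gene, at 5016524. The pooled signal was 62.9 at rank 20, with 39.7 at rank 22 in replicate 1 and 20.9 at rank 30 in replicate 2. The replicate summits were 11 bp and 0 bp from the pooled one, on the wip-1 side or at the same base. Many worm transcripts are trans-spliced, so an annotated start can lie downstream of the true start of transcription, and the distances of all 5 genes are to annotated starts.

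**Figure D1:**
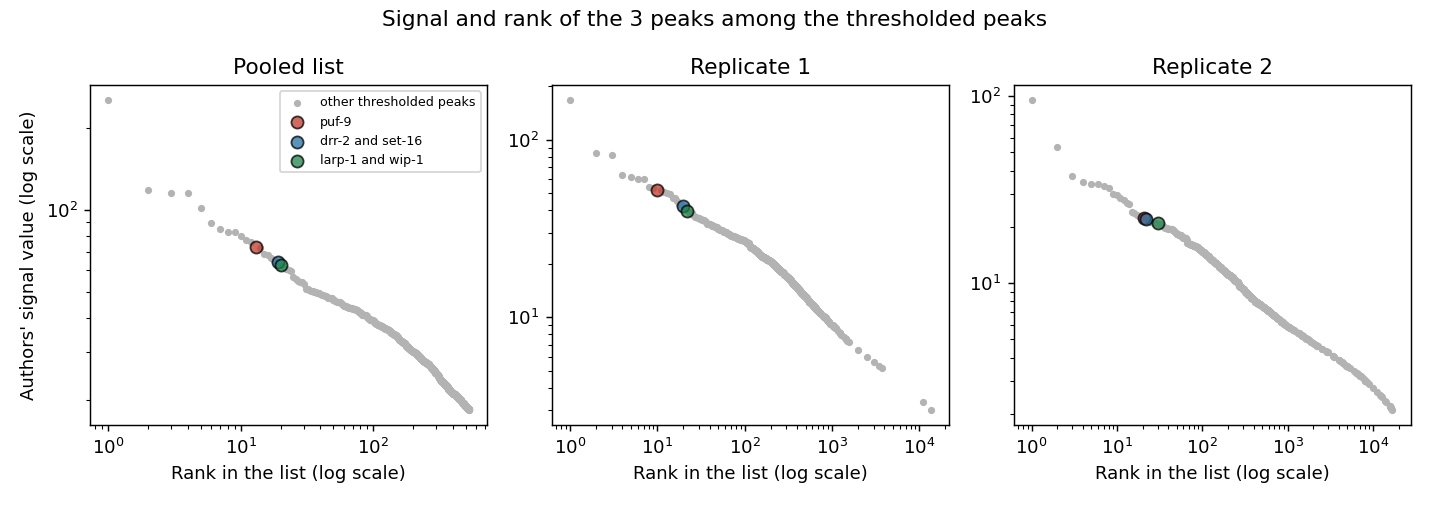
Signal value against rank for the 530 thresholded peaks (grey points) and the 3 peaks of the member genes (coloured points) in the pooled list and in each replicate list, both axes on a log scale. The 3 coloured points lie at ranks 13, 19 and 20 in the pooled list, 10, 20 and 22 in replicate 1, and 21, 22 and 30 in replicate 2, where the puf-9 and drr-2 points overlap.

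The pooled ranks follow from the choice of the genes, and the replicate ranks follow in part, since the pooled list holds both replicates. All are given without a test. The larp-1 and wip-1 peak was the last inside the 20 strongest. The next, of rank 21, had a signal of 62.4 in the pooled list, 39.4 in replicate 1 and 20.8 in replicate 2. It lay on chromosome III from 67116 to 67431, with its summit 1014 bp upstream of pck-1, a phosphoenolpyruvate carboxykinase gene. These peaks of rank 20 and 21 differed by less than 1 unit in each list, so the boundary of the choice separates nearly equal peaks. All 3 member peaks stood above the thresholded median of 26.9, which their choice among the 20 strongest fixed in advance. Their signals were 2.73 times the median for puf-9, 2.41 times for drr-2 and set-16, and 2.34 times for larp-1 and wip-1.

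Replicate 1 gave higher signal values than replicate 2 at all 3 peaks. The ratio of replicate 1 to replicate 2 was 2.33 at puf-9, 1.92 at drr-2 and set-16, and 1.90 at larp-1 and wip-1. Over the 504 thresholded peaks that had a region in both replicate lists, the median ratio was 1.90, with quartiles of 1.32 and 2.83, so the member peaks lay within the middle range. At puf-9, 179 of these peaks had a higher ratio. The lists have no stated common scale, so the ratios describe position within the lists and not a difference between the animals. A further 26 thresholded peaks had no region in replicate 2, and none of the member peaks was among them.

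**Figure D2:**
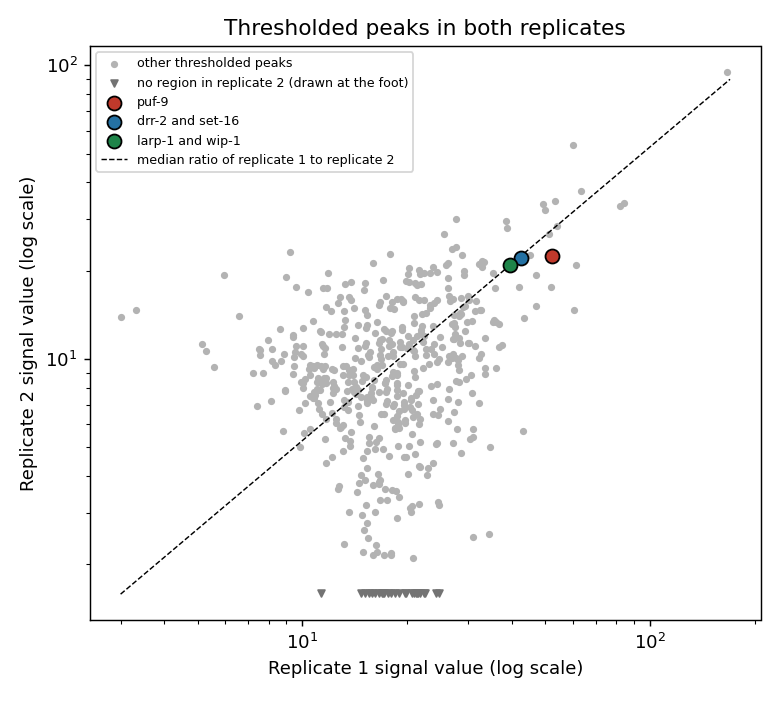
Replicate 2 signal against replicate 1 signal for the thresholded peaks, both on a log scale, with the dashed line at the median ratio of 1.90 and triangles for the 26 peaks with no region in replicate 2, drawn at the foot of the plot at no measured value. The drr-2 and set-16 and the larp-1 and wip-1 points lie on the dashed line, and the puf-9 point lies below it.

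The peaks most like each member peak were found by distance in log2 signal over the pooled, replicate 1 and replicate 2 lists, among the 504 peaks. For larp-1 and wip-1 the nearest was the pck-1 peak, at a distance of 0.017, followed by the drr-2 and set-16 peak at 0.13 and the peak of cox-5A, a cytochrome c oxidase subunit gene, at 0.23. The cox-5A peak, of rank 18, was also the nearest to that of drr-2 and set-16, at 0.10, and to that of puf-9, at 0.26. Next for puf-9 came the peak of the ribosomal protein gene rpl-35, at 0.27, and a peak whose nearest start is F09E10.1, at 0.29. The pooled list holds both replicates, so these 3 lists are not independent.

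Beyond the 3 peaks, the genes held weak regions in the relaxed lists, which keep background as well as peaks. From 2000 bp upstream of the outermost start to the gene end, a thresholded peak was found at 5 of the 5 genes, by choice, and at 3.62% of all protein-coding genes. The pooled relaxed list had 12 regions in these windows, counting shared ones once, of which 9 were not thresholded. Neither puf-9 nor drr-2 had any pooled region other than its peak. The other 3 genes had 2 or more pooled regions, as did 41.6% of protein-coding genes, and the windows differed in length. Per kb of window, larp-1 had 0.56 regions, wip-1 0.67, set-16 0.34, drr-2 0.32 and puf-9 0.16, against 0.30 over the 6 chromosomes. In replicate 1 alone these densities were 0.56 for larp-1 and 0.16 for puf-9, against 0.25 over the chromosomes. In replicate 2 alone they were 0.19 for larp-1 and 0.31 for puf-9, against 0.18, so puf-9 lay above the genome density in that list and below it in the others.

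The strongest of these weaker regions lay inside larp-1. It spanned chromosome III from 5014009 to 5014324, with its summit in an intron, 3483 bp downstream of the outermost larp-1 start and 2357 bp downstream of the inner one. Its pooled signal was 14.8 at rank 759, below the lowest thresholded signal of 18.4, and the peak upstream of larp-1 was 4.25 times as high. Replicate 1 listed it with a signal of 10.9 at rank 687, and replicate 2 did not list it. Its −log10 q-value of 3.33 was the highest in the pooled list, a value shared by 1074 regions. The 101 bp around its summit, chrIII:5014117-5014217 on the plus strand, are shown because this was the strongest region of the 5 genes that was not thresholded. They hold no GCGTG or ACGTG, as in the same window at puf-9 and at larp-1 and wip-1, and 2 copies of GAGAG, seen here as CTCTC in capitals, where the drr-2 and set-16 window holds 1.
larp-1 intron: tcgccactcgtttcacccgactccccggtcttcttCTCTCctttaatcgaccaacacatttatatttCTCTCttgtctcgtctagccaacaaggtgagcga

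The other weak regions of larp-1 and wip-1 had pooled signals of 3.04 to 5.31. One in a coding exon of larp-1, 6678 bp downstream of the outermost start, had a signal of 5.31 pooled and 6.30 in replicate 1 and was not listed in replicate 2. Another in a larp-1 coding exon, 557 bp upstream of the inner larp-1 start, had a pooled signal of 4.53 at rank 13093 and was listed in replicate 2, at 2.89, but not in replicate 1. In wip-1, an intronic region 913 bp downstream of the outermost start had a signal of 3.04 pooled and 4.14 in replicate 1. Replicate 1 alone listed a region 67 bp upstream of the outermost larp-1 start, in the gap shared with wip-1, and its signal of 2.35 was below that list's median of 3.16. The peak in the gap was 13.9 times as high as the next pooled region in the wip-1 window.

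In set-16, a gene of 12.7 kb, all 4 weak pooled regions had their summits in coding exons, with signals from 2.99 to 4.65, and the promoter peak was 13.9 times as high as the strongest of them. The pooled list's median was 4.27, so 2 of these regions, at 4.63 and 4.65, lay just above it, and those at 3.69 and 2.99, of rank 20154 and 28334, lay below it. Replicate 2 listed a further coding-exon region of set-16, 4110 bp downstream of the start, at 4.49 and overlapping no region of the other lists. Replicate 2 also listed a region in a puf-9 intron, at 2.56 and rank 11771, that the other lists lacked.

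**Figure D3:**
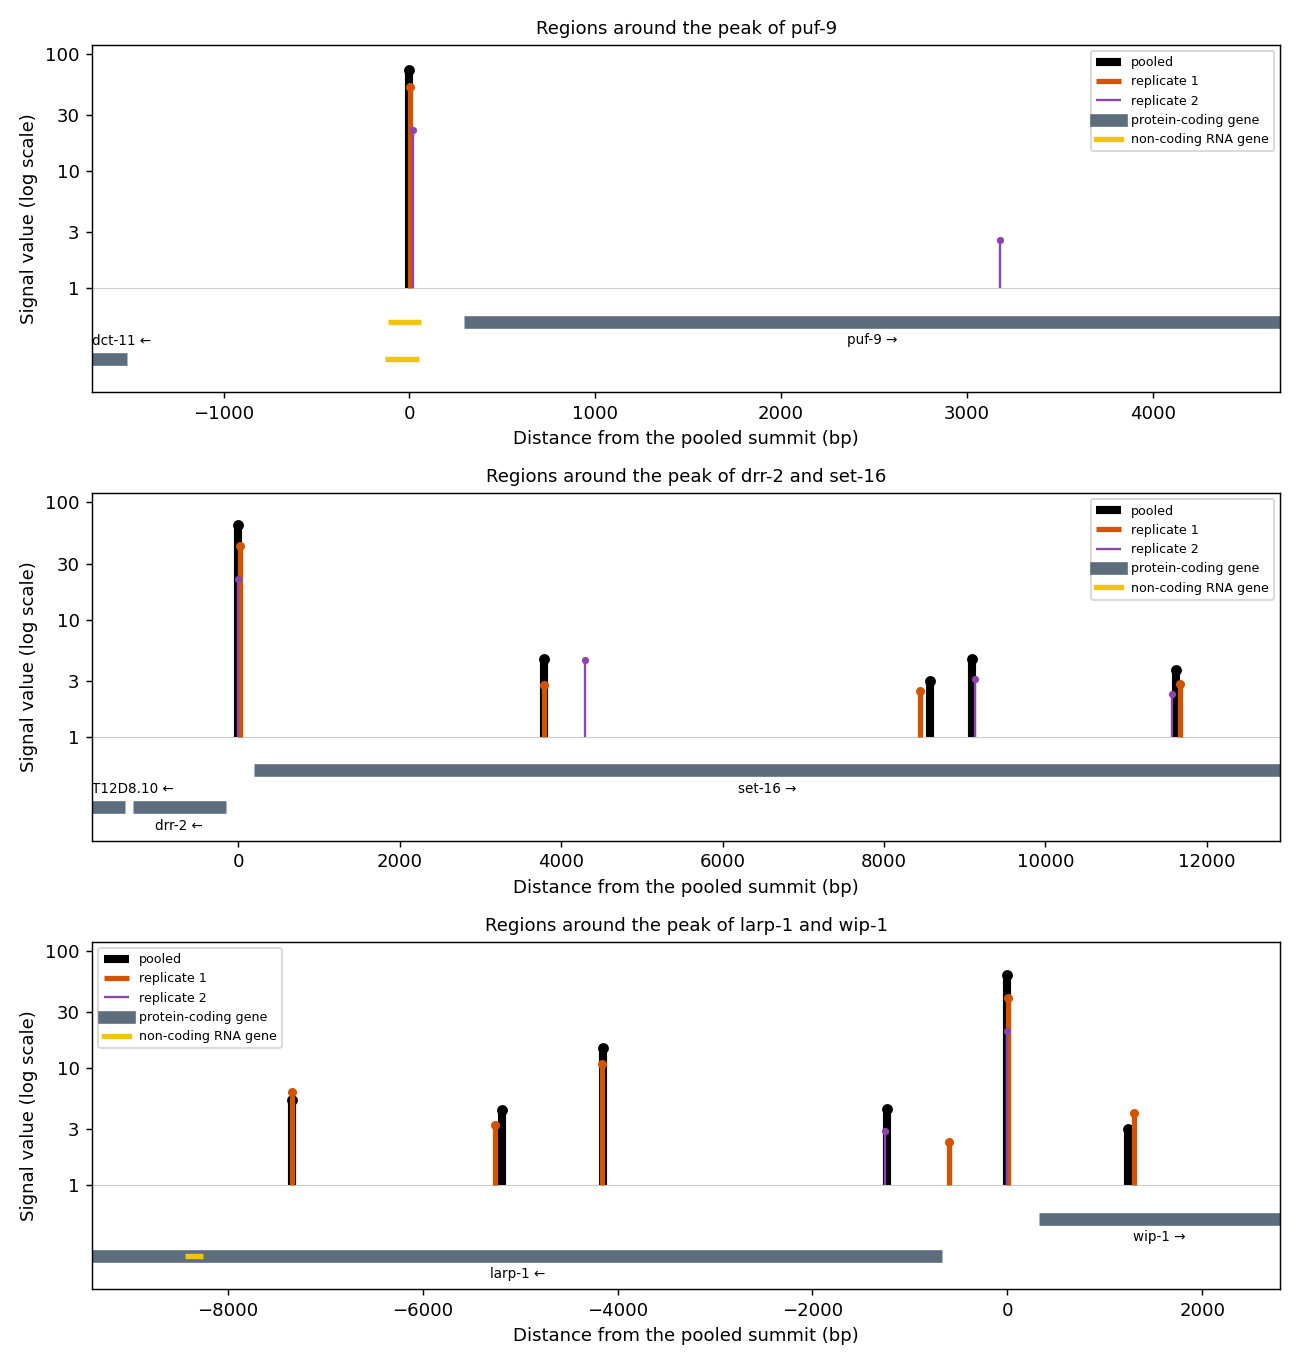
Regions of the pooled and replicate lists around each of the 3 peaks, as vertical lines at their summits with heights on a log axis of signal value, against distance from the pooled summit; grey bars are protein-coding genes and yellow bars non-coding RNA genes, with plus-strand genes on the upper lane. In each panel the tallest lines stand at 0 bp, beside the gene starts, and the next tallest pooled line is the larp-1 intron region at 14.8.

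The core words of AHA-1 dimers were not at the same place in the 3 peaks. The drr-2 and set-16 peak had 1 GCGTG, centred 44 bp to the left of the summit. The puf-9 stretch had 3 copies of GCGTG, of which the nearest to the summit was centred 50 bp to the right of it, just beyond the end of the narrow pooled peak. That copy was 32 bp from the replicate 2 summit and lay inside the wider peaks of both replicates. The larp-1 and wip-1 stretch had no GCGTG and 1 ACGTG, on the minus strand, centred 94 bp to the right of the summit.

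Counting only words that lie wholly within 50 bp of the pooled summit, on both strands, 1 of the 3 member peaks had GCGTG or ACGTG. Among the 20 strongest peaks 14 did, and of all 530 thresholded peaks 42.3% did, against 14.7% of the other 29470 pooled regions. The word GCGTG alone was found at 27.2% of thresholded peaks and at 6.46% of the other regions, and ACGTG at 19.8% and 9.04%. The member count depended on the window: within 100 bp of the summit each of the 3 peaks had GCGTG or ACGTG, as did 56.4% of thresholded peaks. With 3 peaks, no comparison of the member count with these shares was made. CACGTG, which contains ACGTG, was found at none of the 3 peaks and at 4.72% of thresholded peaks.

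Of the other words, GAGAG was present within 50 bp of the drr-2 and set-16 summit, centred 13 bp away, and at 42.1% of thresholded peaks against 15.2% of other regions. At puf-9 the nearest of 3 GAGAG copies was 63 bp from the summit, outside this window, and the larp-1 and wip-1 stretch had none. Neither GATAA nor TATAAA lay within 50 bp of any of the 3 summits, and these words were found at 12.1% and 3.58% of thresholded peaks and at 21.1% and 11.5% of other regions. A word is a match of letters and does not show a bound site.

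A comparison of all words of 6 bp within 50 bp of the 3 summits, made after the sequences were seen, found 1 word in all 3 windows, CACAGT on the plus strand. It was centred 5.5 bp to the left of the puf-9 summit, 22.5 bp to the left of the drr-2 and set-16 summit and 42.5 bp to the left of the larp-1 and wip-1 summit. It was found at 4 of the 20 strongest peaks, these 3 included, at 5.47% of the 530 and at 3.47% of the other pooled regions. The word was picked from these same 3 peaks, so its count among them is a description.

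The sequence at the summits was rich in G and C. The window of 50 bp to either side held 62.4% G or C at drr-2 and set-16, higher than at 512 of the 530 thresholded peaks, 57.4% at larp-1 and wip-1 and 54.5% at puf-9. The thresholded median was 49.5%, with quartiles of 43.6 and 54.5%, so the puf-9 window was at the upper quartile and the other windows above it. The larp-1 intron region, at 48.5%, was near the median.

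All 3 summits lay between protein-coding genes transcribed away from each other. Of the 530 thresholded summits, 415 lay between protein-coding genes, and 227 (42.8% of the 530) between genes transcribed away from each other. The members were chosen for promoter peaks, and wip-1 and set-16 because they share them, so this position follows in part from the choice. For puf-9 the gap between the genes was 1813 bp wide and the summit was 83.8% of the way across it towards puf-9.

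Most genes related to the members by family or pathway had no thresholded promoter peak. Promoters were taken to reach from 1000 bp before any annotated start to 200 bp after it. Of 106 genes on 9 lists, the 5 members left out, 7 had a thresholded summit there (6.60%), against 2.73% of all protein-coding genes, and no test was made of this share. With a promoter of 500 bp before to 100 bp after a start, the shares were 2.83% of the list genes and 2.14% of all protein-coding genes. In the relaxed pooled list 68 of the 106 had a promoter region (64.2%), with a median signal of 5.68 for the strongest region of a gene, against 43.3% of all protein-coding genes with a median of 4.92. Of the 9 other PUF genes found in the annotation, which include the germline regulators fbf-1 and fbf-2, 0 had a thresholded peak and 0 had any pooled region in the promoter. The 1 other La-related gene found, larp-5, had a region 103 bp upstream of its start with a pooled signal of 17.0 at rank 598, just under the threshold. On the remaining lists the share of genes with a pooled promoter region ran from 55.6% (H3K4 methyltransferase complexes) to 81.8% (deadenylation, decapping and silencing).

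Among cap-binding and eIF4F-linked genes, 1 of 10 had a promoter peak. This was ifet-1, which encodes a partner of the cap-binding protein eIF4E, at 47.8 and rank 45 in the pooled list, 30.2 in replicate 1 and 15.8 in replicate 2. Its summit was 507 bp upstream, in a window shared with the ribosomal protein gene rps-1, whose start was nearer. Of 15 genes of the TOR pathway, which couples nutrients to translation, 1 had a peak, that of the GTPase gene rheb-1. Its signal was 19.6 at rank 466, with 7.38 at rank 1506 in replicate 1 and 6.90 at rank 647 in replicate 2. The peak lay in a window shared with spk-1, whose start was nearer.

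Genes of deadenylation, for which PUF proteins bring in enzymes, and of decapping and silencing had a peak at 3 of 22. These were ntl-11 and ntl-2, genes of the CCR4-NOT deadenylase complex, with signals of 45.7 and 33.6, and cgh-1, a DEAD-box helicase gene, with 25.8. The cgh-1 peak had a signal of 24.7 in replicate 1 and was not listed in replicate 2. Of 20 RNA-binding translational regulators 1 had a peak, nhl-2, whose protein works with microRNA complexes, with a signal of 56.8 at rank 25. Its replicate signals were 27.7 and 30.1, and its summit, 830 bp upstream, was nearer to tag-340.

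For the neighbours' pathways, 0 of 9 other genes of H3K4 methyltransferase complexes had a promoter peak, and the strongest region among them was at ash-2, with a signal of 14.4 at rank 795. Of 14 other WASP, WAVE and Arp2/3 genes, 1 had a peak, that of the WAVE gene wve-1, at 43.8 and rank 64 in the pooled list, 30.8 in replicate 1 and 13.5 in replicate 2. Its window was shared with R06C1.4, whose start was nearer. None of the 8 heterochronic genes, the timing pathway in which puf-9 acts, had a thresholded peak. Of these 8, 6 had a pooled promoter region. The strongest region there was at lin-28, 52 bp downstream of its start, at 16.7 and rank 616.

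**Figure D4:**
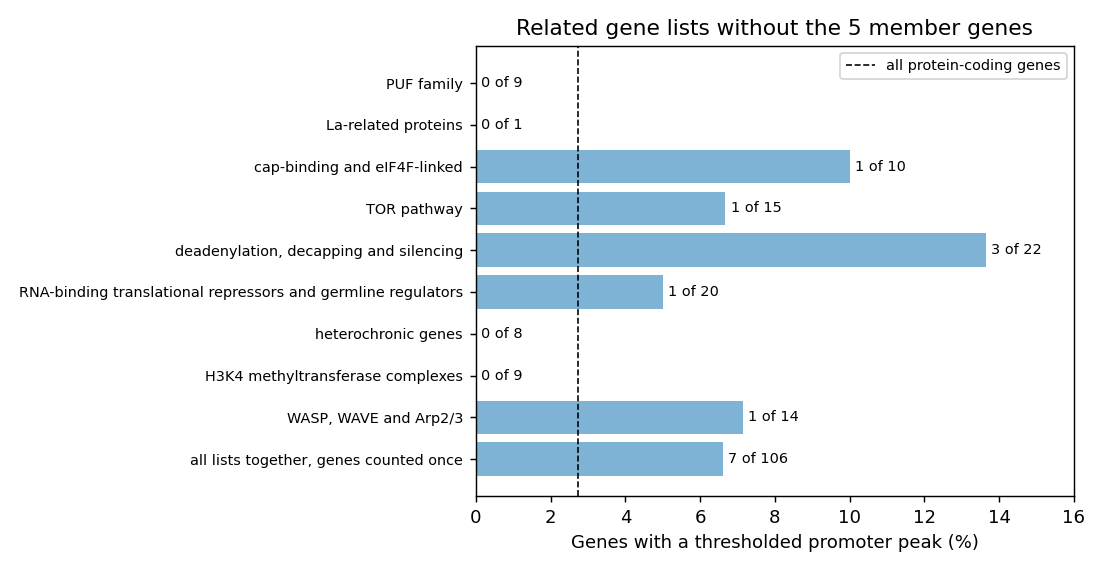
Share of genes on each list, without the 5 member genes, with a thresholded promoter peak, with the number of genes beside each bar and a dashed line at the 2.73% of all protein-coding genes. The 5 lists with any such gene, 4 of them with only 1, and all related genes together (7 of 106) reach past the line, and 4 lists have none, while with the shorter promoter the share of all related genes was 2.83%, against 2.14% of all protein-coding genes.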

How the data were processed

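ChIP-seq peak lists on ce11 were used for 2 biological replicates, numbered as in the labels, which also give fragments of 150 to 350 bp. Per the text deposited with each sample, relaxed lists were made from each replicate and from both pooled, against a control, and the thresholded list was kept by the irreproducible discovery rate. The aligner, peak caller, threshold and read depth are not given in the sources used here, so no interval for counting error was computed. The authors deposited a signal value per peak, used here to rank and describe regions inside each list, and a −log10 q-value. The lists held 30000 pooled, 24611 replicate 1, 18195 replicate 2 and 530 thresholded regions. The ce10 lists were not used here.

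Summits, given 1-based, were assigned to genes of Ensembl release 115 (WBcel235, the assembly of ce11). A replicate region was matched to a pooled peak by overlap of at least 1 bp and nearest summit. Words were sought on both strands in the RefSeq sequence. Searches were checked against a direct search on toy sequence (Python 3.11.15, pandas 2.3.3, numpy 2.4.6).

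The members and lists were chosen with earlier results of these data known, and all values are descriptions with no test. Genes named are the members, genes within 1000 bp of or over a summit, the peaks of rank 20 and 21, the 3 most alike peaks, and up to 3 genes per list by promoter signal. The genes dct-11, larp-5, ash-2 and lin-28, and the larp-1 intron region, were named after their values were seen. The list symbols puf-4, larp-6, larp-7 and ntl-1 matched no gene name in the annotation. Alternatives were a shorter upstream reach, overlap in place of summits, each replicate alone, wider word windows, a narrower promoter window, the 265 strongest peaks and regions above the median.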

Additional observations from a re-analysis of the deposited data

How the results depend on the processing

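The number of thresholded peaks at the 5 genes stayed at 3 with a reach of 1000 bp, with overlap in place of summits, and among the 530 strongest regions of either replicate alone. Their place among the 20 strongest depended on the list. In replicate 2 alone the 3 peaks ranked 21, 22 and 30, all outside it, and in replicate 1 alone 10, 20 and 22. The pooled regions numbered 12 with either window rule, 9 above the list median, and 8 to 11 in a replicate list alone. At larp-1 the number fell from 6 to 2 in replicate 2 alone, at set-16 from 5 to 3 above the median, and at puf-9 it rose from 1 to 2 in replicate 2. The share of protein-coding genes with a thresholded peak in the members' window was 2.97% with a reach of 1000 bp and 3.42 to 3.56% with a replicate alone. The share of thresholded peaks with GCGTG or ACGTG was 56.4% within 100 bp and 65.5% over the whole peak, windows that hold more sequence. List genes with a promoter peak were 2.83% with 500 bp upstream and 100 bp downstream, against 2.14% of all protein-coding genes, and 4.72% with the 265 strongest peaks, against 1.34%. With the shorter window, the peaks of ifet-1, nhl-2, cgh-1 and wve-1 no longer counted. No paired analysis was possible because there was 1 group and no test. Read depth is unknown, and why replicate 2 did not list the larp-1 intron region was not tested.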
